A study of Arabidopsis thaliana with 4 samples.

Results

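IKU1 (AT2G35230) and IKU2 (AT3G19700) are the HAIKU genes of Arabidopsis thaliana, named for the small seeds of their mutants. They were chosen by name, with earlier results of these data known. Each has 1 probe on the array, so 2 of the 10513 genes with a value on every array are described here. For IKU1 no difference from the reference tissue was detected, and its mean ratio was close to the median of all genes. Its confidence interval ran from 0.841-fold to 1.37-fold, so a difference in either direction is not excluded. IKU2 was 1.46-fold higher in endosperm, a difference that just passed the test. It no longer passed when replicate 1 or replicate 2 of the 3 endosperm samples was left out. Of 11 other settings it passed in 5, or in 4 when the fit was run over genes in place of probes. In the fit over genes it also no longer passed without replicate 3.

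The endosperm feeds the embryo and grows before it, first as nuclei that divide without cell walls and then as cells. In the HAIKU pathway, the length of that first phase sets much of the final seed size, and loss of IKU1 or IKU2 makes the endosperm form walls early and the seed stay small. IKU1 encodes a protein with a VQ motif, a short stretch through which such proteins bind WRKY transcription factors, and IKU2 encodes a receptor kinase with leucine-rich repeats outside the cell. MINI3 is the WRKY factor of the pathway, and SHB1 is a regulator that associates with the promoters of MINI3 and IKU2.

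The study compared growing endosperm with the rest of the fruit at a single stage, 4 days after pollination. Endosperm was cut by laser from sections of siliques (the fruits), and 3 such samples were each hybridised on 2-colour oligonucleotide arrays against 1 common reference RNA, scraped from the silique tissue that stayed on a slide. The endosperm RNA carried Cy3 for replicate 1 and Cy5 for replicate 3, while replicate 2 was run on a pair of arrays with the dyes exchanged, so there are 4 arrays and n = 3. No treatment is named, and neither the genotype nor any transgene is mentioned in the labels. Nothing says that the endosperm samples are of different plants. The p-values therefore cover the spread among these samples alone, which may be technical, and the 1 reference RNA adds no spread of its own to them.

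Values are log ratios per probe, taken as log2, and are written as endosperm over reference. That direction is likely and not stated: it follows from endosperm marker genes, a list holding neither IKU1 nor IKU2, whose median was above 0 on every array (between 1.69 and 2.09). If the reference were the numerator, every sign below would turn, higher would read lower, and ranks and percentiles would run from the other end. The base is not stated either: the 1.46-fold of IKU2 would be 1.73-fold if the values were natural logs and 3.52-fold if they were log10, and every other fold would change likewise, while p-values against no difference would not. Of 10 measured endosperm markers 9 were higher, but their sign set the direction and shows nothing further. The only measured marker of the silique wall, ALC, was at -2.40 ± 0.22 (SD, n = 3). Of 3 measured seed coat markers, INO was lower at -0.73 ± 0.27, while BAN (-0.39 ± 0.28) and DFR (0.15 ± 0.27) did not pass. Over all 10513 genes 34.0% were called higher and 23.7% lower, so 1 lower call among 3 genes says little. None of the 11 listed embryo markers has a named probe, so embryo RNA in the samples was not tested. Arrays held values for between 21829 and 23171 probes.

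IKU1 was at -0.18 in replicate 1, at 0.18 and 0.41 on the Cy3 and Cy5 arrays of replicate 2, and at 0.19 in replicate 3. Replicate 1 was thus slightly below the reference and the other arrays slightly above it. The mean log2 ratio was 0.10 ± 0.25 (SD, n = 3), or 1.07-fold, and it did not pass (limma, Benjamini-Hochberg adjusted p = 0.567 over 19449 probes). The 95% interval of limma ran from -0.25 to 0.46, which is 0.841-fold to 1.37-fold. The interval holds differences in either direction. The ratio compares shares of RNA, and fewer cells that express a gene and less RNA per cell cannot be told apart.

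IKU2 was above the reference on all 4 arrays. It was at 1.04 in replicate 1, at 0.31 and 0.20 on the Cy3 and Cy5 arrays of replicate 2, and at 0.34 in replicate 3. Replicate 1 stood apart, and the other 3 arrays lay within 0.14 of each other. The mean log2 ratio was 0.55 ± 0.43 (SD, n = 3), or 1.46-fold with a 95% interval from 1.06-fold to 2.01-fold, and it passed narrowly (limma, Benjamini-Hochberg adjusted p = 0.0485). Of all probes 57.5% were called, 32.0% as higher, so a call is common on these arrays.

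The IKU2 call was lost without replicate 1, where the log2 ratio was 0.30 (limma adjusted p = 0.0993), and without replicate 2, where it was 0.69 (adjusted p = 0.0626). It was also lost on the Cy5 arrays alone (0.27, adjusted p = 0.135), and after the median of every array was set to 0 (0.47, adjusted p = 0.0689). The sign was positive in all 11 alternatives that were run. IKU1 passed in 0 of 11 alternatives, and its adjusted p came closest on the Cy5 arrays alone (0.30, adjusted p = 0.119).

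**Figure D1:**
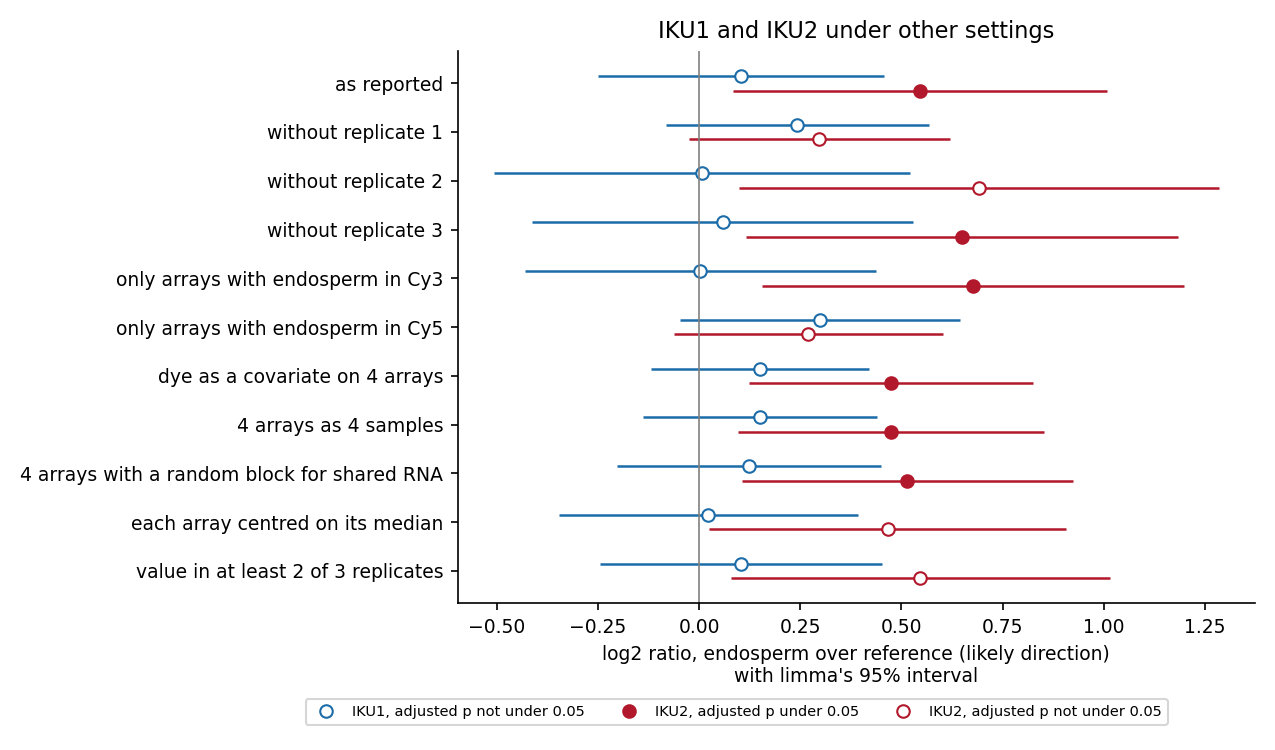
Log2 ratio of IKU1 (blue) and IKU2 (red) on the x axis under the reported setting and 10 alternatives, with limma's 95% intervals as lines and filled points where the adjusted p was under 0.05. IKU2 keeps its sign throughout, but without replicate 1 it falls to 0.30, beside 0.24 for IKU1.

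The dye and the sample were then looked at separately. Between the Cy3 and the Cy5 array of replicate 2, which hold the same RNAs, IKU1 moved by 0.22 and IKU2 by -0.11, both less than the SD of that difference over all probes (0.42). Between replicates 1 and 2 with the same dye, Cy3, IKU2 was higher by 0.73 in replicate 1, and 90.4% of probes differed by less. The same difference was -0.36 for IKU1, with 64.1% of probes differing by less. Between replicates 3 and 2, both with Cy5, IKU2 differed by 0.14 and IKU1 by -0.21. The spread of IKU2 over the 3 replicates was wider than that of 83.6% of probes, whereas that of IKU1 was ordinary, wider than 55.4%.

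Ranked among all probes, IKU1 lay at percentile 36.0 in replicate 1, at 54.3 and 68.8 on the Cy3 and Cy5 arrays of replicate 2, and at 56.1 in replicate 3. IKU2 lay at percentile 84.8, 61.2, 58.9 and 62.9 in the same order. By mean ratio IKU1 was at percentile 49.4 and IKU2 at percentile 72.4, or at 50.6 and 27.6 with the sign turned. The median log2 ratio of all measured genes was 0.14, so IKU1 was 0.04 below it and IKU2 0.40 above it.

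**Figure D2:**
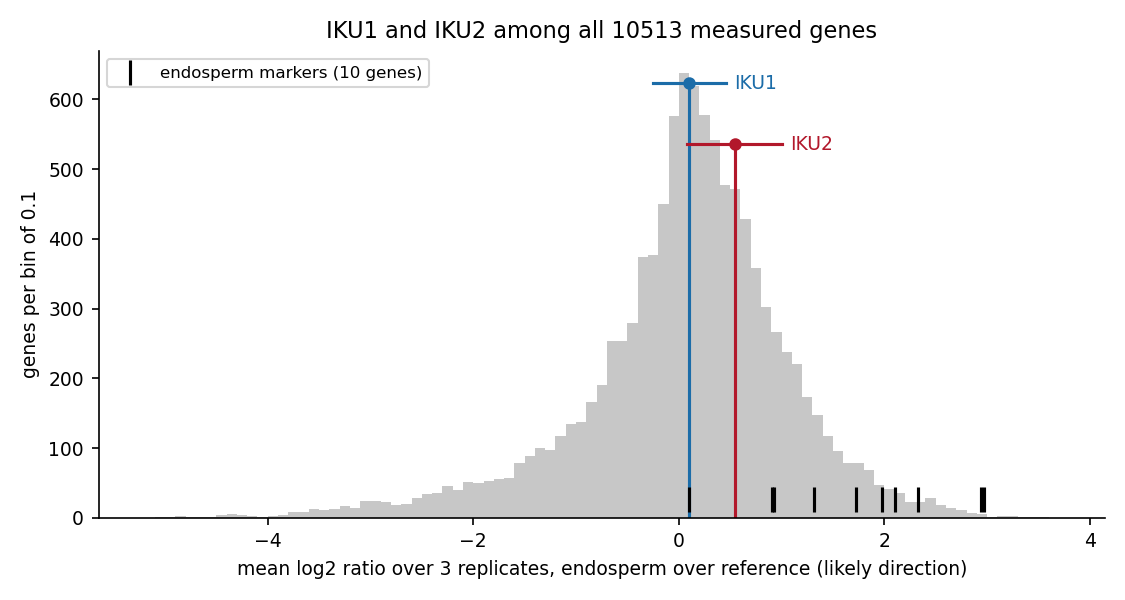
Mean log2 ratio over 3 replicates (x axis) of all 10513 measured genes, as genes per bin of 0.1 (y axis), with IKU1 (0.10) and IKU2 (0.55) as points with limma's 95% intervals; the heights of the points have no meaning. Black ticks are the 10 measured endosperm markers, 9 of which lie to the right of both genes.

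The HAIKU genes were set beside each other as ratios, since levels of different probes cannot be compared. IKU2 minus IKU1 was 1.22 in replicate 1, 0.13 and -0.20 on the Cy3 and Cy5 arrays of replicate 2, and 0.15 in replicate 3. The mean difference of 0.44 ± 0.68 (SD, n = 3) was smaller than its spread (exact sign-flip permutation test, two-sided, p = 0.5, 0.5 adjusted over 3 comparisons). With 3 replicates that test cannot go below 0.25. Without replicate 1 the difference was 0.05, and on the Cy5 arrays alone it turned to -0.03, so the higher ratio of IKU2 rests on replicate 1.

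Other genes of seed size were taken from a list of 27, of which 21 have no named probe here, MINI3 among them. The 5 genes measured on all 4 arrays include both HAIKU genes. AGL62 and IKU2 were called higher, the other 3 were not called, and the median log2 ratio of the 5 was 0.30. Of all 10513 genes 57.6% were called, 34.0% as higher and 23.7% as lower. AGL62 passed in every alternative run. IKU2 did not, and the count fell to 1 when replicate 1, 2 or 3 was left out. In this fit over genes IKU2 also missed the threshold without replicate 3 (limma adjusted p = 0.0597), where the fit over probes had kept it (adjusted p = 0.0463). Calls over all probes fell as well when 1 replicate was left out, to between 4627 and 6157 higher (from 6231). Lower calls fell to between 3863 and 4855 (from 4957).

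AGL62 encodes a type I MADS-box factor that holds back the formation of endosperm cell walls, the step that comes early in HAIKU mutants. It is also 1 of the 10 markers that set the direction of the ratios, so its being higher is not separate evidence. It was at 1.67 in replicate 1, at 2.09 and 2.28 on the Cy3 and Cy5 arrays of replicate 2, and at 1.31 in replicate 3. Its lowest array lay above the highest of IKU1 and of IKU2. Its ratio exceeded that of IKU1 by 1.62 ± 0.43 and that of IKU2 by 1.18 ± 0.67 (SD, n = 3), in 3 of 3 replicates each. Neither difference passed the exact sign-flip test (p = 0.25, 0.375 adjusted over 3 comparisons), which cannot go below 0.25 with 3 replicates and so cannot decide here.

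SHB1 was at 0.57 in replicate 1, at 0.39 and -0.19 on the Cy3 and Cy5 arrays of replicate 2, and at 0.22 in replicate 3. Its arrays overlapped with those of both HAIKU genes, and its mean of 0.30 ± 0.24 (SD, n = 3) did not pass (limma adjusted p = 0.122). UBP15, a ubiquitin-specific protease that promotes seed growth in the maternal integuments, was at 0.05 in replicate 1, at -0.18 and -0.36 on the Cy3 and Cy5 arrays of replicate 2, and at -0.14 in replicate 3. Its mean of -0.12 ± 0.16 (SD, n = 3) did not pass either (limma adjusted p = 0.449). AT4G36860, also on the list, had no value in replicate 1 and was at -1.30, -1.10 and -0.98 on the other arrays. It was named after these values were seen and was not part of the main test, which needs a value on all 4 arrays.

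**Figure D3:**
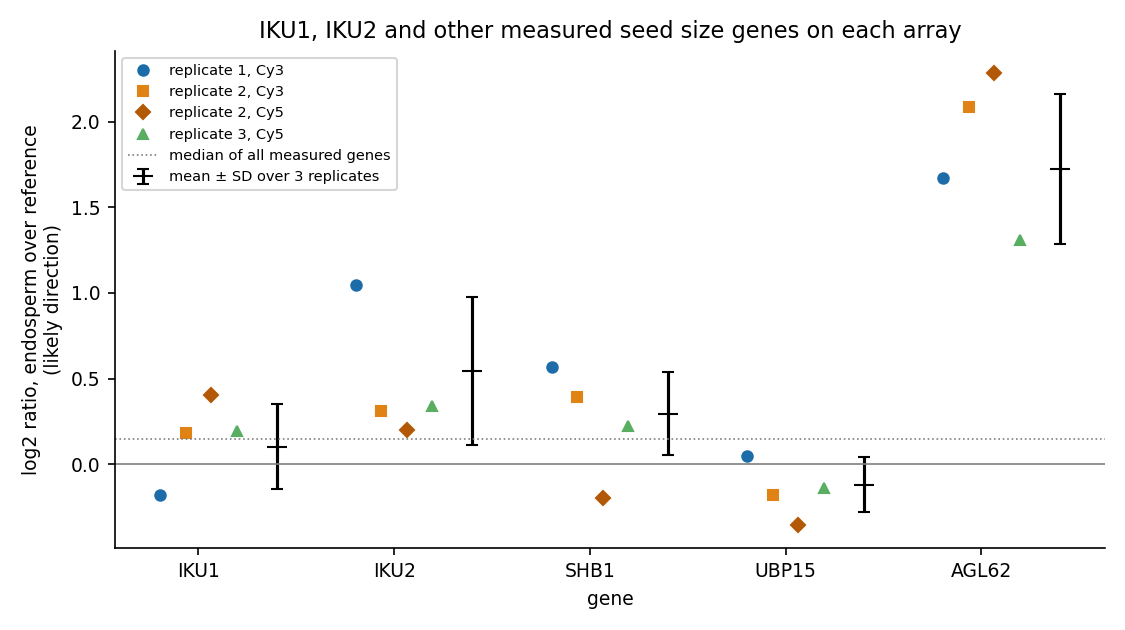
Log2 ratio (y axis) of IKU1, IKU2 and the other seed size genes measured on all arrays (x axis), with 1 symbol per array and black bars for the mean ± SD over 3 replicates. Replicate 1 of IKU2, at 1.04, stands above its other arrays, and all 4 arrays of AGL62, from 1.31 upward, lie above all arrays of the HAIKU genes.

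IKU1 was next placed among the genes listed as its VQ motif family. Of 34 listed genes, 15 have no named probe and 4 more lack a value on some array, which leaves 15 measured. The test called 3 of these higher and 7 lower, and left 5 uncalled, IKU1 among them. Their median log2 ratio was -0.05. Over all genes the median was 0.14, and 34.0% were called higher and 23.7% lower. The 10 calls fell to 6 without replicate 2. Over all probes calls fell there too, from 6231 to 4627 higher and from 4957 to 3863 lower. The highest of the 15 family genes were AT5G46780, at 1.32 ± 0.16, and AT1G35830, at 0.67 ± 0.09 (SD, n = 3). The lowest were AT5G65170, at -1.70 ± 0.13, and AT3G58000, at -0.96 ± 0.44 (SD, n = 3). Each of these named genes kept 1 sign on every array, with AT5G46780 between 1.16 and 1.47 and AT5G65170 between -1.82 and -1.35. By mean ratio IKU1 had rank 5 of 15 from the top, and its rank on single arrays was between 5 and 7. With the sign turned these would be rank 11, and 9 to 11 on single arrays.

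IKU2 was placed among receptor kinases with leucine-rich repeats listed as belonging to or near its subfamily, numbered XI. Of 26 listed genes 18 have no named probe and AT1G08590 has no value on any array, so 7 were measured. IKU2 had the highest mean ratio of the 7 and was the 1 gene called higher, at a gene-level adjusted p of 0.0496 (limma), while 1 other was called lower. Over all genes 34.0% were called higher and 23.7% lower, and with the sign turned IKU2 would have rank 7 of 7. It had rank 1 in replicates 1 and 3, and ranks 2 and 3 on the Cy3 and Cy5 arrays of replicate 2.

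The kinase next to it was GSO1, which encodes a receptor with a role in forming the embryo's cuticle. GSO1 was at 0.01 in replicate 1, at 0.55 and 1.08 on the Cy3 and Cy5 arrays of replicate 2, and at 0.11 in replicate 3. Its arrays overlapped with those of IKU2, and its mean of 0.31 ± 0.44 (SD, n = 3) did not pass (limma adjusted p = 0.204). The order of IKU2 and GSO1 was thus not the same on all arrays. At the other end AT4G08850 was lower, at -1.06 ± 0.24 (limma adjusted p = 0.00168), and AT4G28650 (-0.37 ± 0.34) did not pass.

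**Figure D4:**
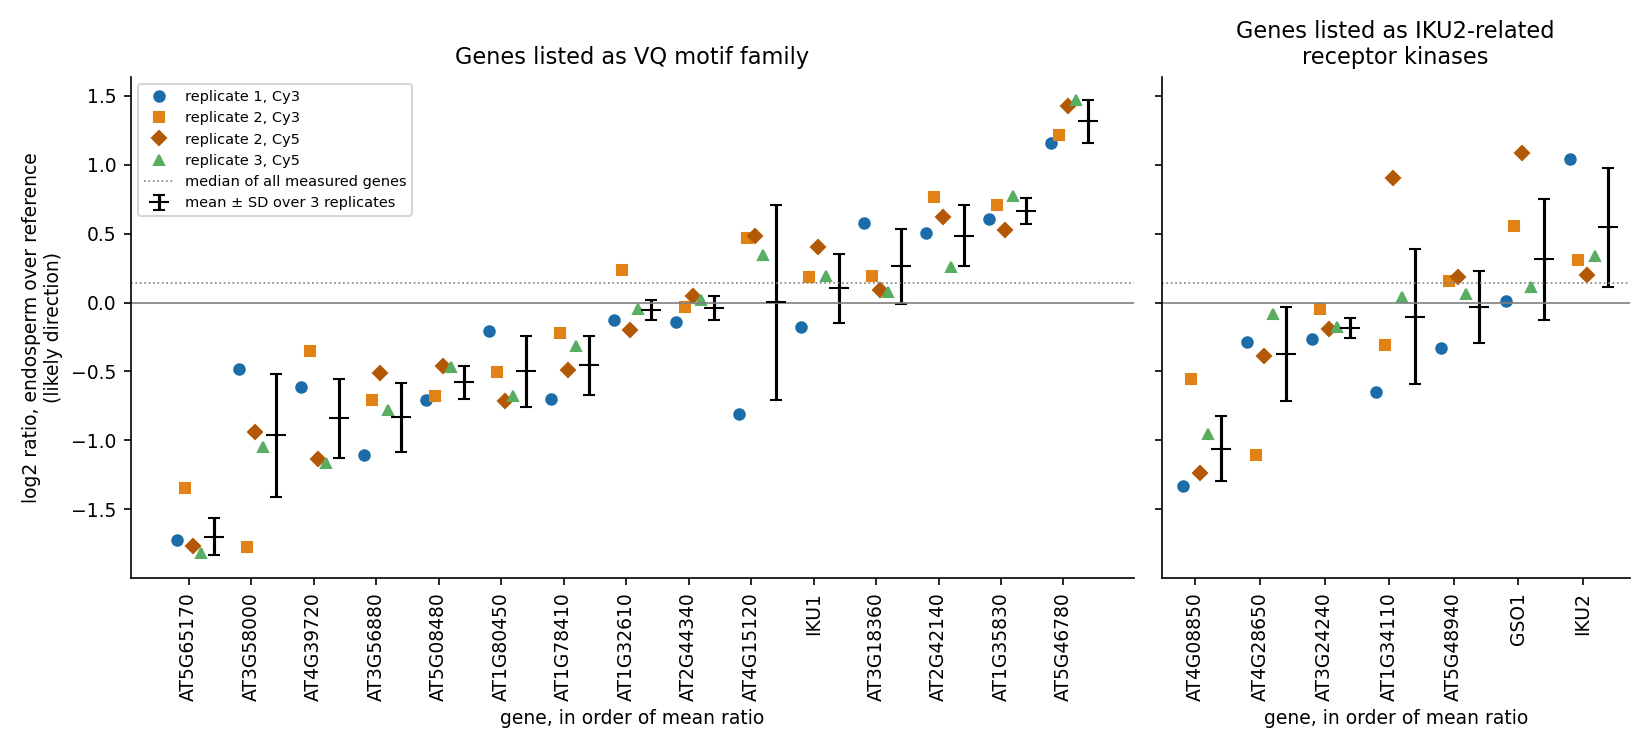
Log2 ratio (y axis) of the 15 measured genes listed with IKU1 (left) and the 7 listed with IKU2 (right), in order of mean ratio along the x axis, with 1 symbol per array and black bars for the mean ± SD over 3 replicates. IKU1, at 0.10, sits inside its family, whose means run from -1.70 to 1.32, while IKU2, at 0.55, has the highest mean of its group with arrays that overlap those of GSO1.

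WRKY factors of group I, the kind to which MINI3 belongs, were represented by 2 of 14 listed genes. ZAP1 (WRKY1) was at 1.02 in replicate 1, at 0.11 and -0.06 on the Cy3 and Cy5 arrays of replicate 2, and at -0.05 in replicate 3. WRKY20 was at 0.65, -0.04, -0.45 and -0.82 in the same order. Like IKU2, both had their highest value in replicate 1, and 0 of the 2 passed (limma adjusted p = 0.272 and 0.698, unadjusted p = 0.211 and 0.64), where 57.6% of all genes did. On the Cy5 arrays alone 1 of the 2 was called.

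The endosperm markers were picked as endosperm genes and set the sign of the ratios, so the HAIKU genes' place below most of them is a description and no test. The means of 9 of the 10 markers lay above both IKU1 and IKU2, and 1, AGL48 (0.09 ± 0.14), lay below both. On every single array 9 markers were above IKU1 and 7 above IKU2. AT5G26630, for example, was at 2.90 in replicate 1, at 3.11 and 2.89 on the Cy3 and Cy5 arrays of replicate 2, and at 2.93 in replicate 3, and AGL38 (PHE2) had a mean of 2.97 ± 0.05. The next lowest marker by mean was AT3G05860, at 0.91 ± 0.32, which lay above IKU2 on every array. Its highest array was that of replicate 1 (1.25).

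The genes whose 4 ratios were closest to those of each HAIKU gene were found by Euclidean distance over the arrays, which all share 1 reference. Genes picked in this way share the array pattern of their HAIKU gene by construction. For IKU1 these were AT5G60630 (distance 0.077), AT5G17970, AT5G43020, AT5G44150 and AT4G33370 (0.135). Their values in replicate 1, the lowest array of each, were between -0.19 and -0.10. For IKU2 they were AT3G29740 (0.071), AT1G66080, AT4G33690, AT3G57470 and AT4G12670 (0.131), all with replicate 1 between 0.98 and 1.13 and every other array at or below 0.41. The HAIKU genes were 1.25 apart, and 5142 genes lay closer to IKU1 than IKU2 did, while 4477 lay closer to IKU2 than IKU1 did.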

How the data were processed

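Total RNA of 3 laser-cut endosperm samples and of the reference was amplified in 2 rounds of in vitro transcription and coupled to Cy dyes, per the labels' protocols. The authors' deposited log ratios, taken as logs since both signs occur and each array's mean is within 0.003 of 0, and as log2 by assumption, were the only values used. Per the sources used here, the scanner, background correction, normalization, log base and numerator are not given. Intensities were not used here, so dim spots were not filtered, and precision is limited by the number of arrays. Probe sequences were not used here.

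Probes were named through the platform's gene table (14539 of 26912, each with 1 gene), and 14485 were matched to the RefSeq table of TAIR10.1. The array's genome build is not named, and coordinates are left out. Arrays correlated with r between 0.87 and 0.92 over probes.

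The arrays of replicate 2 were averaged, and limma 3.58.1, run in R 4.3.3, tested each probe's mean against 0 (intercept, eBayes, two-sided, Benjamini-Hochberg, threshold 0.05) over the 19449 probes with a value on all 4 arrays. List genes were tested in the same way over 10513 genes, with probes of 1 gene averaged. The fit was tested on simulated data. Genes named were the HAIKU genes, all measured seed size genes, the 2 highest and 2 lowest of each other list, and the 5 nearest genes. The HAIKU genes, lists and alternatives were chosen with earlier results of these data known. List membership comes from general knowledge, and loci without a symbol in the tables are given by locus.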

Additional observations from a re-analysis of the deposited data

Results flagged for a closer look

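Over the 4 arrays, 3 of 32 named genes had 1 array apart from the others by Dixon's ratio (above its 95% critical value for 4 values). The ratio is the gap over the gene's own range, so a small gap can pass. The 32 include the 5 genes nearest to each HAIKU gene, which were picked for its array pattern. Chance flags about 1 in 20 groups, and here the arrays of replicate 2 share their RNAs, so the 4 values are not independent. IKU2 was at 1.04 in replicate 1, with the next array at 0.34. ZAP1 was at 1.02 in replicate 1, with the next at 0.11. AT5G26630 was at 3.11 on the Cy3 array of replicate 2, with the next at 2.93. Of all 10513 genes, 6.34% passed the same value, and in 323 of these 667 genes the array apart was that of replicate 1. The cause was not tested.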

How the results depend on the processing

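IKU2 kept its sign in all 11 alternatives, which reuse the same 4 arrays, all of them above 0. It kept its call in 5 in the fit over probes, or in 4 in the fit over genes. Of either number, 2 are fits that count the arrays of replicate 2 as separate samples. Leaving out 1 replicate gave log2 ratios from 0.30 to 0.69, and the call held without replicate 3 (0.65, limma adjusted p = 0.0463) but not in the fit over genes (0.0597). It was lost on the Cy5 arrays alone (0.27), with each array centred on its median (0.47), against a fold change of 1.5 and with probes valued in at least 2 of 3 replicates (0.55 in each, adjusted p 0.0562 for the latter). IKU1 ranged from 0.00 to 0.30 and never passed. Leave-one-out values of IKU1 were 0.01 to 0.24. IKU2 minus IKU1 was 0.05 to 0.68 without 1 replicate and reversed to -0.029 on the Cy5 arrays alone. SHB1 passed on the Cy3 arrays alone (0.48, adjusted p = 0.0498).

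When tested against 1.5-fold, 2364 probes were higher and 2521 lower (6231 and 4957 as reported). Without 1 replicate, between 4627 and 6157 probes were higher and between 3863 and 4855 lower. Called seed size genes were 1 in place of 2 without any 1 replicate, on the Cy5 arrays, after centring and against a fold change of 1.5. The same changes, and the looser filter on missing values, left 1 called receptor kinase in place of 2. Under that filter 2 seed size genes were called, but IKU2 was not (fit over genes, limma adjusted p = 0.0560). AT4G36860 was then among the genes tested. Called VQ family genes numbered 6 to 9 without 1 replicate (6 without replicate 2) and 2 when tested against 1.5-fold (10 as reported). On the Cy5 arrays 1 WRKY gene was called in place of 0. Causes were not tested. duplicateCorrelation gave no value with 1 pair of arrays, so the random block used a correlation of 0.46 from moments. Each value is already a ratio within 1 array. Endosperm could not be paired with a reference sample of its own, since 1 reference RNA served every array.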
